A study of Mus musculus with 48 samples.

Results

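The 9 genes described here encode enzymes that make and break down glycogen and the subunits that bring protein phosphatase 1 to it, and they were taken by gene name from the 54532 genes of the count table. They are Gys1, Gys2, Gbe1, Ugp2, Pygl, Pygb, Ppp1r3b, Ppp1r3c and Ppp1r3d, and all 9 passed the filter on low counts. RNA was sequenced from subcutaneous (inguinal) white adipose tissue (sWAT) of male C57BL/6 mice labelled 8 months old, which either ate freely (ad-lib) or were on the TAN regimen, with food only in a pair of windows in the dark phase. Each diet has 4 libraries at each of 6 time labels (12AM, 4AM, 8AM, 12PM, 4PM and 8PM), 48 in all, and no mouse carried a transgene or a drug treatment. TAN mice ate modestly less than ad-lib mice, so the timing and the amount of food cannot be told apart.

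Glycogen is a branched store of glucose, known best from liver and muscle and held in small amounts by adipocytes, where it is built up after feeding and turned over as fat is made. Ugp2 supplies UDP-glucose, the synthases Gys1 (the muscle form) and Gys2 (the liver form) lengthen the chains, and Gbe1 adds the branches. The phosphorylases Pygl (the liver form) and Pygb (the brain form) release glucose units. Ppp1r3b, Ppp1r3c and Ppp1r3d are targeting subunits that hold protein phosphatase 1 on the glycogen particle, where it switches synthase on and phosphorylase off.

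By the file's GRCm38 coordinates the synthases lie on chromosome 7 at 45434844-45456619 (Gys1) and chromosome 6 at 142422613-142473109 (Gys2), Gbe1 on chromosome 16 at 70313949-70569716 and Ugp2 on chromosome 11 at 21321138-21371201. The phosphorylases lie on chromosome 12 at 70190811-70231488 (Pygl) and chromosome 2 at 150786735-150831758 (Pygb). The subunits lie on chromosome 8 at 35375739-35388139 (Ppp1r3b), chromosome 19 at 36731737-36736653 (Ppp1r3c) and chromosome 2 at 178411206-178414472 (Ppp1r3d), and values are for whole genes.

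The libraries held 15636378 to 29913310 counts, and the lowest count of a member in any library was 122, of Gys2. Levels are given as CPM (counts scaled to a common library size, after TMM normalisation) and, where genes are compared with each other, as CPM per kb of the deposited gene length. The 6 adipocyte markers were present in each library, with Adipoq at 551 to 7050 CPM, although the series calls the material a stromal vascular fraction. In 10 libraries (4 ad-lib and 6 TAN) the 10 lymphocyte markers were nearly missing, with a mean log2 CPM of at most 1.71 against at least 4.62 in the others, and 2 TAN libraries of 8PM were poor in adipocyte markers, at up to 9.02 against at least 9.78. The time labels of the count table are used here. The paper's supplementary tables list the same 48 libraries 12 h apart, so that a library called 4PM here stands under 4AM there. By the labels used here the clock gene Dbp was highest at 4PM in both diets and Arntl at 8AM.

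Over the 6 time labels together, some of the enzymes and Ppp1r3b were higher in TAN sWAT. Of the 9 members 5 rose in the mean over the time labels: Gys2, Gbe1, Ugp2, Pygl and Ppp1r3b. Across all genes tested 2.68% were higher in TAN by the same rule, an adjusted p under 0.05 in edgeR's quasi-likelihood test of 19977 genes. The log2 fold change of each member was above 0, with a median of 0.50 against -0.08 over all genes tested, and those of Pygb, Ppp1r3c and Ppp1r3d, which did not pass, were at 0 or below with the adipocyte markers as a covariate. In the same contrast the thermogenic adipocyte markers Cidea (log2 fold change 1.19) and Elovl3 rose, 2 of 3, and the macrophage marker Csf1r fell by 0.47 on the log2 scale, 1 of 4. Elovl3 was near the floor, with a median of 0.239 CPM over the 48 libraries.

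In the 24 ad-lib libraries Pygl lay between 57.9 and 354 CPM with a median of 147 CPM, and in the 24 TAN libraries between 44.6 and 714 CPM with a median of 284 CPM. The ranges overlapped, and the mean log2 fold change was 0.87 ± 0.16 (SE, adjusted p = 0.000978). Gbe1 had a median of 127 CPM (61.8 to 273) in ad-lib and 254 CPM (39.3 to 547) in TAN libraries. Its log2 fold change was 0.87 ± 0.17 (adjusted p = 0.00211). These were the members with the lowest adjusted p.

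Gys2 had a median of 20.5 CPM (6.39 to 49.7) in ad-lib and 37.2 CPM (4.89 to 102) in TAN libraries, a log2 fold change of 0.78 ± 0.19 (adjusted p = 0.0131). Ugp2 changed less, from a median of 170 CPM (104 to 296) to 246 CPM (68.5 to 519), with a log2 fold change of 0.50 ± 0.14 (adjusted p = 0.0270). Ppp1r3b had the largest difference and the widest spread, from a median of 38.5 CPM (7.35 to 357) to 102 CPM (19.0 to 943), with a log2 fold change of 1.29 ± 0.32 (adjusted p = 0.0169).

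The muscle and brain forms of the enzymes and the other targeting subunits did not pass. The log2 fold change was 0.34 ± 0.14 for Gys1 (adjusted p = 0.143) and 0.10 ± 0.12 for Pygb (adjusted p = 0.662). It was 0.29 ± 0.28 for Ppp1r3c (adjusted p = 0.592) and 0.08 ± 0.17 for Ppp1r3d (adjusted p = 0.843). Without the 10 lymphocyte-poor libraries 4 of the 5 passed, Gys2 being lost (adjusted p = 0.102), and Ugp2 was lost without ad-lib replicate 1 at 4AM (adjusted p = 0.0505). With the percentage of reads assigned to TEC loci (annotated transcripts that await experimental checks) as a covariate, Gys2, Gbe1 and Pygl passed, against 2.84% of all genes in either direction.

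**Figure D1:**
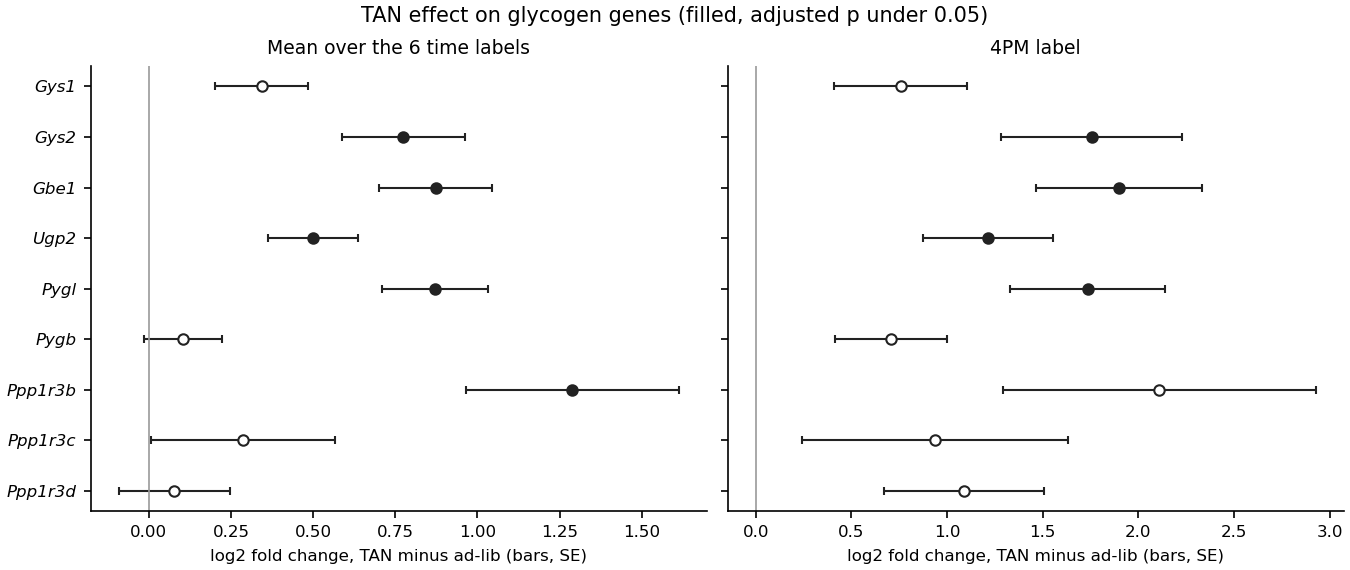
Log2 fold change of each member, TAN minus ad-lib, as the mean over the 6 time labels (left) and at 4PM (right), with bars of 1 SE. Filled points passed at an adjusted p under 0.05: 5 of 9 on the left and 4 of 9 on the right, and each point lies right of 0.

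At 4PM the enzymes differed most between the diets. Gys2, Gbe1, Ugp2 and Pygl rose in TAN sWAT, 4 of 9 members against 6.54% of all genes tested. In 8 of the 9 members, all but Gys1, the 4 TAN libraries lay above the 4 ad-lib libraries, as they did in 12.8% of all genes tested. The median log2 fold change of the members was 1.22, and that of all genes tested -0.09.

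Pygl was at 145, 127, 82.0 and 97.1 CPM in ad-lib replicates 1 to 4 and at 336, 361, 199 and 606 CPM in TAN replicates 1 to 4. The lowest TAN library was above the highest ad-lib library, and the log2 fold change was 1.74 ± 0.41 (adjusted p = 0.00984). Gbe1 was at 123, 102, 61.8 and 90.5 CPM in ad-lib and at 395, 266, 249 and 499 CPM in TAN libraries. Its log2 fold change was 1.90 ± 0.43 (adjusted p = 0.00921), the largest among the enzymes at this label.

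Gys2 was at 21.8, 18.0, 12.3 and 17.6 CPM in ad-lib and at 42.4, 54.1, 36.6 and 102 CPM in TAN libraries, a log2 fold change of 1.76 ± 0.47 (adjusted p = 0.0162). Ugp2 was at 159, 168, 104 and 132 CPM in ad-lib and at 349, 258, 339 and 362 CPM in TAN libraries, a log2 fold change of 1.22 ± 0.34 (adjusted p = 0.0192). For both, TAN replicates stood clear of the ad-lib ones, with Gys2 in TAN replicate 4 well above the other TAN libraries.

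The other members had log2 fold changes of 0.76 ± 0.35 (Gys1, adjusted p = 0.121), 0.71 ± 0.29 (Pygb, adjusted p = 0.0843), 2.11 ± 0.82 (Ppp1r3b, adjusted p = 0.0683), 0.94 ± 0.69 (Ppp1r3c, adjusted p = 0.362) and 1.09 ± 0.42 (Ppp1r3d, adjusted p = 0.0653). None of these passed in the fit of the 48 libraries. In a fit of the 8 libraries of 4PM alone, all 9 members passed, as did 27.2% of the genes tested there.

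Marker RNA of several cell types also differed at 4PM. The 10 lymphocyte markers summed to 988 to 1720 CPM in ad-lib and to 9.46 to 355 CPM in TAN libraries, Cr2 and Cd3g among them fell in TAN, and none was at 0. The 6 adipocyte markers summed to 9340 to 15000 CPM in ad-lib and to 22000 to 44500 CPM in TAN libraries, with 1 of 6 (Fabp4) higher in TAN. Of 3 markers of thermogenic adipocytes, which summed to 20.9 to 37.4 CPM in ad-lib and to 60.5 to 143 CPM in TAN libraries, Cidea (log2 fold change 1.72) and Elovl3 rose. Ucp1, the defining marker of these cells, was at 0 in 22 of the 48 libraries, and its highest level was 3.18 CPM. Elovl3 was also near the floor, at 0 in 14 libraries, with a median of 0.239 CPM and a highest level of 4.8 CPM. These sums were thus nearly all Cidea (16.9 to 221 CPM over the 48 libraries). Of the macrophage, mammary epithelium and neutrophil markers, 1 each fell (Csf1r, Epcam and Retnlg). The part of these cells in the members' differences was not tested.

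TAN replicate 3 was the TAN library of this label that was not lymphocyte-poor, with lymphocyte markers at 355 CPM, still under the ad-lib range, and adipocyte markers at 30050 CPM, above it. It had 199 CPM of Pygl, 249 CPM of Gbe1 and 36.6 CPM of Gys2, each above the 4 ad-lib libraries. Set against 1000 CPM of summed adipocyte markers, 0 of 9 members had the 4 TAN libraries above the 4 ad-lib libraries at 4PM, where 0.205% of all genes did. Pygl then spanned 7.14 to 12.0 CPM in ad-lib and 6.61 to 27.5 CPM in TAN libraries. Fabp4 weighed most in these sums, with a median of 9590 CPM over the 48 libraries, against 728 (Lipe) to 2750 CPM (Adipoq) for the other markers. It was also the marker that rose in TAN at 4PM (log2 fold change 1.44). The same sums scale the values at 12AM and 12PM below.

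Without the 10 lymphocyte-poor libraries, which leaves 1 TAN library at 4PM, or with the lymphocyte or adipocyte markers as a covariate, 0 of 9 members passed at 4PM. Of all genes 6.53%, 0% and 0.335% passed in these fits, in either direction, so that most calls at this label were lost with the covariates. The log2 fold change of Pygl was then 0.81, 0.81 and 1.11. Without ad-lib replicate 3 there were 2 of 9, Gbe1 and Pygl (1.98% of all genes), Gys2 was also lost without TAN replicate 4 (adjusted p = 0.0616) and Ugp2 without TAN replicate 1 (adjusted p = 0.0582). With the TEC share as a covariate there was 1 of 9 (Pygl; 0.275% of all genes), with log2 fold changes of 1.89 for Gys2, 1.64 for Gbe1, 0.79 for Ugp2 and 1.86 for Pygl, the TEC share being 0.0882% to 0.110% in ad-lib and 0.0327% to 0.0847% in TAN libraries. In bulk tissue, more adipocytes and more RNA of a gene per adipocyte cannot be told apart.

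**Figure D2:**
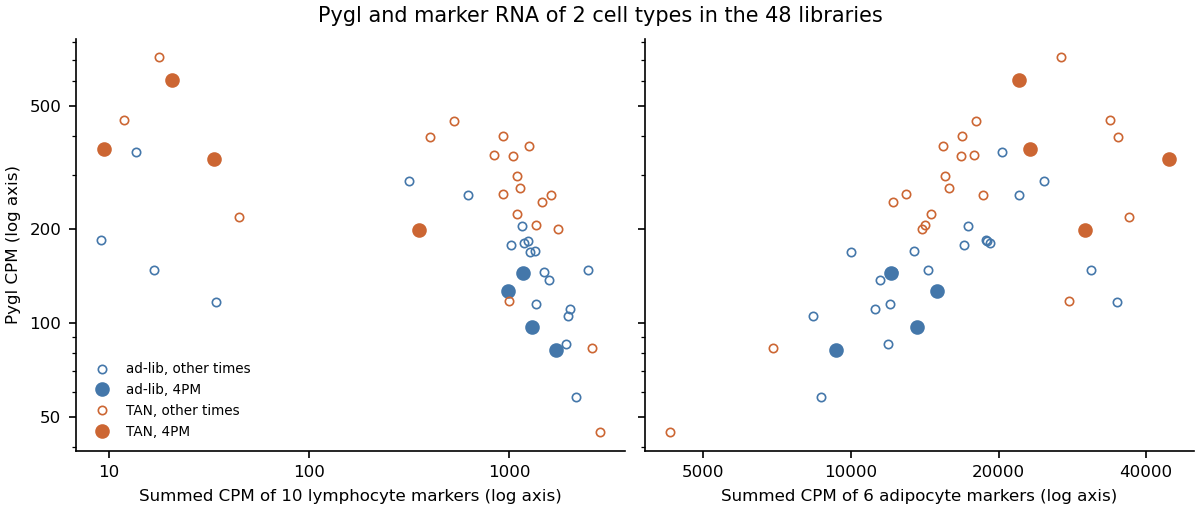
Pygl CPM in the 48 libraries (log axis) against the summed CPM of 10 lymphocyte markers (left, log axis) and of 6 adipocyte markers (right, log axis), with filled points for 4PM. The 4 TAN libraries of 4PM hold 9.46 to 355 CPM of lymphocyte and 22000 to 44500 CPM of adipocyte markers, and the 4 ad-lib libraries 988 to 1720 and 9340 to 15000 CPM.

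At the other time labels no member passed in the fit of the 48 libraries. The lowest adjusted p was 0.130 at 12AM (0.15% of all genes called in either direction), 0.9995 at 4AM (0%), 0.765 at 8AM (0.015%), 0.378 at 12PM (0.0901%) and 0.0840 at 8PM (11.7%). At an unadjusted p under 0.05 there were 3, 0, 0, 3 and 1 of 9 members, against 17.5%, 2.64%, 6.58%, 7.37% and 28% of all genes. DESeq2 called 2 at 12AM, against 2.84% of all genes, and 1 at 8PM, against 16%. It called 0 at 4AM, 8AM and 12PM, and limma voom called 0 at each of these labels.

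At 12AM the largest enzyme differences were those of Pygl and Gbe1, the 2 of 9 members with the TAN libraries above the ad-lib ones, against 3.59% of all genes. At 12AM Pygl was at 206, 181, 170 and 178 CPM in ad-lib and at 258, 450, 397 and 714 CPM in TAN libraries, with no overlap, a log2 fold change of 1.31 ± 0.40 and an adjusted p of 0.130. Gbe1 was at 223, 228, 128 and 179 CPM in ad-lib and at 241, 547, 477 and 543 CPM in TAN libraries, with a log2 fold change of 1.25 ± 0.43 and an adjusted p of 0.151. Without TAN replicate 1 at 12AM, which had the lowest Pygl and Gbe1 of its group, 3 of 9 members passed there, against 4.22% of all genes. That library had the most lymphocyte RNA of its group (1616 CPM) and the least adipocyte RNA (18550 CPM).

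The adipocyte markers of 12AM summed to 13500 to 19200 CPM in ad-lib and to 18600 to 35100 CPM in TAN libraries, of which replicates 2 and 4 were lymphocyte-poor. Per 1000 CPM of these markers Pygl overlapped, at 9.39 to 12.6 in ad-lib and 11.3 to 26.6 in TAN libraries. Gbe1 did not, at 9.51 to 12.9 and 12.97 to 20.2 (1 of 9 members with TAN above, against 0.41% of all genes). Pygb lay lower in TAN on this scale, at 8.69 to 11.3 against 12.7 to 19.9 in ad-lib libraries (1 of 9 members with TAN below, against 18.9% of all genes), while its log2 fold change in CPM was 0.13.

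At 12PM Pygl (85.8 to 185 CPM in ad-lib, 260 to 446 CPM in TAN) and Gys2 (12.8 to 18.8 CPM in ad-lib, 23.8 to 58.8 CPM in TAN) were the 2 members without overlap, against 3.3% of all genes. Their log2 fold changes were 1.36 ± 0.40 (adjusted p = 0.378) and 1.32 ± 0.47 (adjusted p = 0.530). Per 1000 CPM of adipocyte markers 4 members (Gys1, Gys2, Gbe1 and Pygl) had the TAN libraries above the ad-lib ones at 12PM, against 2.99% of all genes, with Pygl at 4.80 to 9.82 in ad-lib and 19.1 to 24.8 in TAN libraries. With the adipocyte markers as a covariate Gbe1 (adjusted p = 0.0370) and Pygl (adjusted p = 0.00944) passed at 12PM, against 0.556% of all genes.

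At 8AM Ppp1r3b was at 125, 158, 12.3 and 30.3 CPM in ad-lib and at 270, 321, 207 and 182 CPM in TAN libraries. Its log2 fold change was 1.59 ± 0.80 (adjusted p = 0.765). These ranges did not overlap, in 1 of 9 members at this label, and the share of all genes was not counted there. At 8PM Ppp1r3c stood at 42.3, 140, 24.7 and 39.4 CPM in ad-lib and at 44.9, 22.0, 168 and 627 CPM in TAN libraries. Its log2 fold change of 1.81 ± 0.71 (adjusted p = 0.0840) rested on 2 TAN libraries, and the other 2, replicates 1 and 2, were the adipocyte-poor ones. Without those 2 libraries Ppp1r3c (adjusted p = 0.0158) and Ugp2 (adjusted p = 0.0337) passed at 8PM, 2 of 9 members against 10.8% of all genes. That fit leaves 2 TAN libraries at 8PM, and TAN replicate 4 among them was lymphocyte-poor. Without ad-lib replicate 2 or without TAN replicate 2, 1 of 9 members passed, against 6.16% and 7.27% of all genes.

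Whether the TAN effect differed between the time labels was tested for each member, and 0 of 9 passed against 8.98% of all genes. The lowest adjusted p was 0.0605, of Pygl. At an unadjusted p under 0.05 there were 2 members, against 30.2% of all genes. DESeq2 called 1 (Pygl), against 20% of all genes, and limma voom 2 (Gys2 and Pygl), against 22.6%.

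Over the time course in TAN sWAT 6 of 9 members varied, against 23% of all genes: Gbe1, Ugp2, Pygl and the 3 targeting subunits. In ad-lib sWAT 0 of 9 varied in edgeR's test, against 0.0551% of all genes, with 3 members at an unadjusted p under 0.05 (6.67% of all genes). There, 1 was called by DESeq2 (Ppp1r3b, against 0.571% of all genes) and 0 by limma voom. A call in one diet and not in the other does not show that the diets differ, and the test of that difference is the one above.

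**Figure D3:**
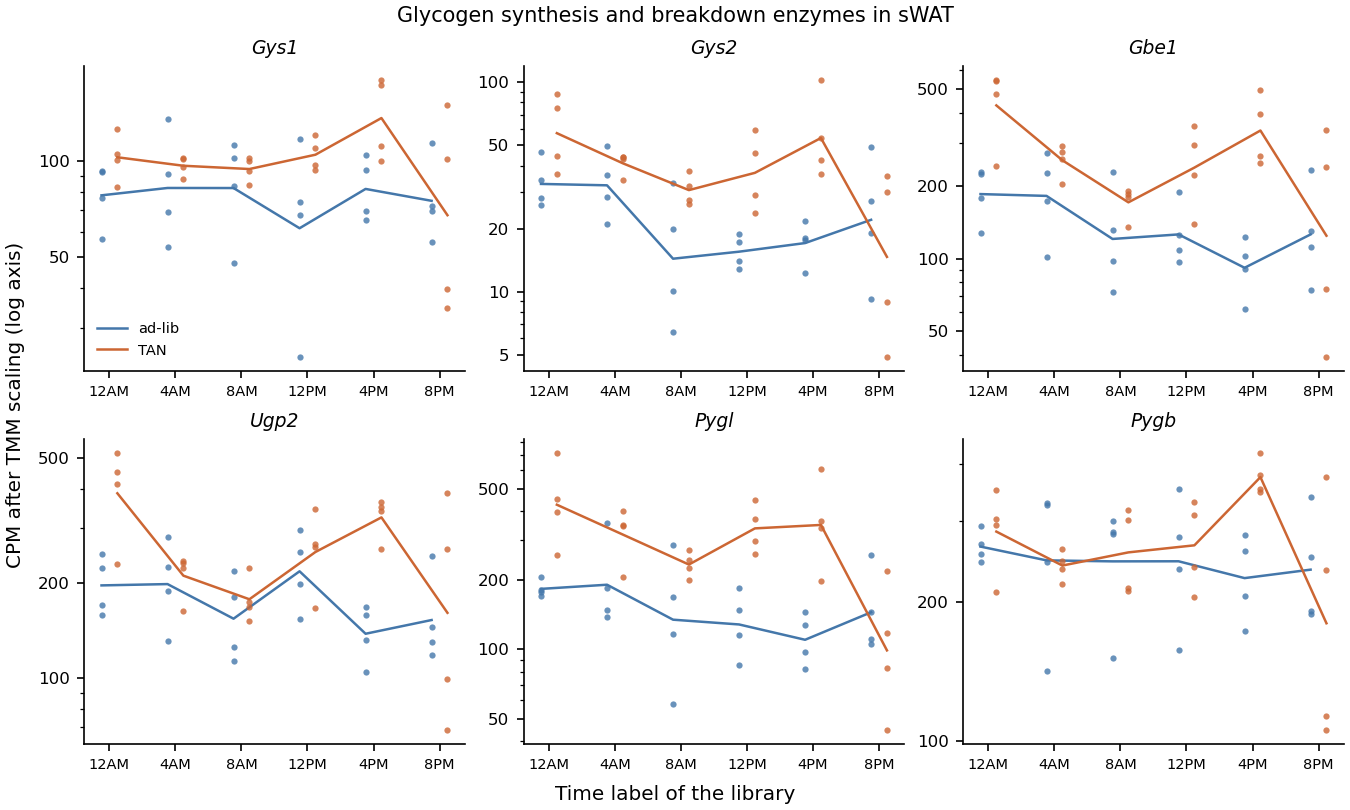
CPM (log axis) of the 6 enzymes at the 6 time labels in ad-lib (blue) and TAN (orange) libraries, each point 1 library and each line the geometric mean of 4. TAN levels of Gys2, Gbe1, Ugp2 and Pygl are highest at 12AM and lowest at 8PM on these lines.

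By geometric means, Gys2, Gbe1, Ugp2 and Pygl in TAN sWAT were highest at 12AM, next at 4PM and lowest at 8PM. Pygl was at 455 ± 191 CPM (SD, n = 4) at 12AM, 325 ± 82.1 CPM at 4AM, 235 ± 30.1 CPM at 8AM, 343 ± 82.4 CPM at 12PM, 376 ± 170 CPM at 4PM and 116 ± 75.2 CPM at 8PM. The geometric mean at 12AM was 4.30 times that at 8PM, and the libraries of these labels did not overlap. These labels were picked as highest and lowest from the same values, so the gap is a description and not a test. The adjusted p of Pygl over the time labels was 0.0109. Gbe1 went from 452 ± 144 CPM at 12AM to 172 ± 25.5 CPM at 8AM, 352 ± 118 CPM at 4PM and 173 ± 141 CPM at 8PM (adjusted p = 0.0454). Ugp2 took the same course, at 404 ± 123, 180 ± 30.9, 327 ± 46.9 and 203 ± 148 CPM (adjusted p = 0.0402). Gbe1 missed the threshold in 12 and Ugp2 in 10 of the 24 fits without 1 TAN library, with an adjusted p of up to 0.106 and 0.118.

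Gys2 had a like shape, at 60.8 ± 24.4 CPM at 12AM, 30.9 ± 5.19 CPM at 8AM, 58.8 ± 29.8 CPM at 4PM and 19.8 ± 15.2 CPM at 8PM, and just missed the threshold (adjusted p = 0.0563). Gys1 and Pygb were flatter. Gys1 lay between 81.4 ± 54.6 CPM at 8PM and 141 ± 41.1 CPM at 4PM (adjusted p = 0.440), and Pygb between 207 ± 126 CPM at 8PM and 375 ± 33.8 CPM at 4PM (adjusted p = 0.183).

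The large spread at 8PM came with the adipocyte-poor libraries. Pygl was at 82.9 and 44.6 CPM in TAN replicates 1 and 2 and at 118 and 220 CPM in replicates 3 and 4. The 6 adipocyte markers summed to 6927 and 4272 CPM in the first pair and to 27780 and 36930 CPM in the second. Without the first pair 5 of 9 members varied in TAN sWAT, Pygl being lost (adjusted p = 0.117). The share of all genes that varied in that fit is not given here. Fewer members varied without the lymphocyte-poor libraries, a fit that leaves 1 TAN library at 4PM. Without TAN replicate 2 at 12AM 3 of 9 varied, against 14.5% of all genes. Gbe1 (adjusted p = 0.106), Ugp2 (adjusted p = 0.118) and Ppp1r3b (adjusted p = 0.0590) were then lost.

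In ad-lib sWAT the means of the enzymes lay closer together. Pygl lay between 113 ± 28.5 CPM at 4PM and 206 ± 100 CPM at 4AM, and Gbe1 between 94.4 ± 25.6 CPM at 4PM and 194 ± 73.5 CPM at 4AM. Gys1 stayed between 70.9 ± 37.8 CPM at 12PM and 87.4 ± 35.6 CPM at 4AM, and Pygb between 230 ± 48.9 CPM at 4PM and 265 ± 21.3 CPM at 12AM. The highest ad-lib Gys1, 136 CPM in replicate 3 at 4AM, was in the library with the most muscle marker RNA (8 markers, 6787 CPM in sum, against 4.46 to 2802 CPM in the others); the part of muscle RNA in this value was not tested. Ckm was at 0 in 19 of the 48 libraries and Myh4 in 17.

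In ad-lib sWAT the targeting subunits had the largest differences between time labels among the members, and in TAN sWAT Ppp1r3b did. Ppp1r3b was at 357, 317, 239 and 95.6 CPM at 12AM and at 11.6, 14.5, 7.35 and 17.8 CPM at 4PM in ad-lib libraries, an 18.6-fold difference of geometric means with no overlap. In TAN libraries it was at 286, 943, 371 and 715 CPM at 12AM and at 31.2, 41.3, 45.5 and 103 CPM at 4PM. The difference was 10.4-fold, with no overlap. In both diets these labels were picked as highest and lowest from the same values, so the gaps are descriptions and not tests. The adjusted p over the time labels was 0.0145 in TAN and 0.141 in ad-lib, and the latter became 0.0267 without the lymphocyte-poor libraries.

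**Figure D4:**
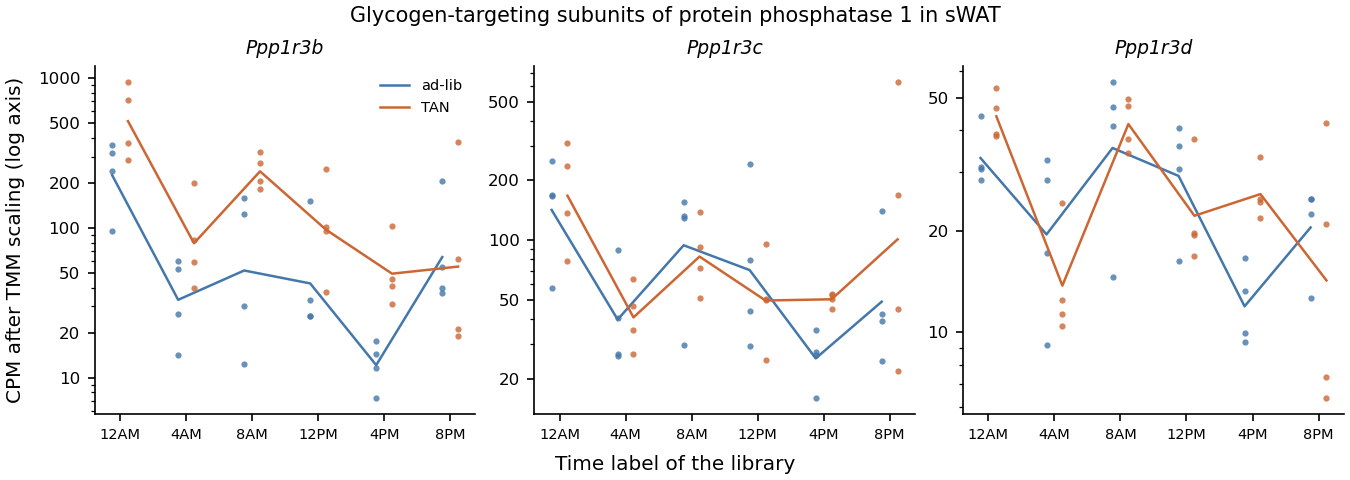
CPM (log axis) of the 3 targeting subunits at the 6 time labels in ad-lib (blue) and TAN (orange) libraries, each point 1 library and each line the geometric mean of 4. The geometric mean of Ppp1r3b is 18.6 times as high at 12AM as at 4PM in ad-lib and 10.4 times in TAN libraries.

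Between these labels Ppp1r3b in TAN sWAT was at 95.6 ± 71.9 CPM at 4AM, 245 ± 62.6 CPM at 8AM and 120 ± 88.7 CPM at 12PM. In ad-lib sWAT the corresponding levels were 38.6 ± 21.9, 81.3 ± 71.0 and 58.9 ± 61.6 CPM. The ad-lib libraries of 8AM split into a high pair (125 and 158 CPM) and a low pair (12.3 and 30.3 CPM).

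In TAN sWAT Ppp1r3c and Ppp1r3d also had their highest geometric mean at 12AM, but their lowest at 4AM. Ppp1r3c in TAN libraries was at 78.8, 309, 137 and 237 CPM at 12AM, and at 35.1, 26.7, 46.6 and 63.5 CPM at 4AM (adjusted p over the time labels 0.0239). Ppp1r3d was at 38.5, 53.5, 46.7 and 38.9 CPM at 12AM and at 12.5, 10.5, 11.4 and 24.3 CPM at 4AM (adjusted p = 0.0192). For both genes these labels, picked as highest and lowest from the same values, did not overlap. In ad-lib libraries Ppp1r3c lay between 26.4 ± 7.95 CPM at 4PM and 161 ± 79.3 CPM at 12AM (adjusted p = 0.548), and Ppp1r3d between 12.3 ± 3.35 CPM at 4PM and 39.6 ± 17.7 CPM at 8AM (adjusted p = 0.403).

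Across the 12 group means of log2 CPM, Pearson's r was 0.72 between Ppp1r3c and Ppp1r3d, 0.78 between Ppp1r3b and Ppp1r3c, and 0.95 between Pygl and Gbe1, but 0.12 between Pygl and Ppp1r3c. These are descriptions of 12 means that share libraries. RefSeq promoters on GRCm38.p6 were matched for 7 of the 9 members (Gys1, Gbe1, Ugp2, Pygl, Pygb, Ppp1r3c and Ppp1r3d), and their 250 bases before the start site were searched on both strands. The E-box CACGTG, the letters that CLOCK and ARNTL are known to bind, was found in Ppp1r3c and Ppp1r3d, and in 6.02% of 32851 promoters. Both stretches are shown 5′ to 3′ on the gene's strand, with the E-box in capitals. The courses of these 2 subunits were not the same. After 12AM, Ppp1r3c in TAN libraries was highest at 8PM (216 ± 282 CPM), where Ppp1r3d was at 19.2 ± 16.7 CPM. A match is not evidence of binding.
Ppp1r3c (chr19:36736676-36736735, minus strand, E-box from 104 bases before the start): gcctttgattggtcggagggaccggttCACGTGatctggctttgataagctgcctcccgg
Ppp1r3d (chr2:178414657-178414713, minus strand, E-box from 226 bases before the start): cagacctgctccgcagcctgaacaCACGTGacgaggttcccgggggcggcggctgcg

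The letters AGGTCA known from REV-ERB and related receptors were found in Pygl, on the reverse strand, and in 14% of all promoters. The D-box TTATGTAA (0.819% of promoters), the cAMP response element TGACGTCA (1.55%) and GTAAACA of the FoxO family (3.17%) were found in none of the 7 members.

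Per kb of length, Ppp1r3c was the most abundant of 6 Ppp1r3 genes (Ppp1r3a to Ppp1r3f) in all 24 ad-lib libraries. In TAN sWAT Ppp1r3b led in 10 of 24 libraries, among them the 4 of 12AM and the 4 of 8AM, and Ppp1r3c in the other 14. The share of Ppp1r3b among the 6 genes was 34.6% ± 5.69 at 12AM in ad-lib and 50.8% ± 3.23 in TAN libraries (SD, n = 4). At 8AM it was 15.9% ± 10.1 and 43.9% ± 2.52. The TAN and ad-lib libraries did not overlap at these labels, with 46.0% to 53.1% against 30.4% to 43.0% at 12AM and 42.1% to 47.6% against 6.56% to 28.1% at 8AM. At 8PM the means were 26.5% ± 6.78 in ad-lib and 16.3% ± 4.91 in TAN libraries. Ppp1r3a, the subunit of skeletal muscle, took at most 13.4% of the 6 in any library.

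Per kb, the 2 synthases together stood at a log2 ratio of -1.54 (median; -2.19 to -1.16) to the 2 phosphorylases in ad-lib and at -1.45 (-1.90 to -1.02) in TAN libraries. The group means ran from -1.87 ± 0.29 at 12PM to -1.42 ± 0.13 at 4PM in ad-lib, and from -1.54 ± 0.25 at 12PM to -1.40 ± 0.30 at 8PM in TAN libraries. At 4PM, where both kinds of enzyme were higher in TAN, the ratio was -1.42 ± 0.13 in ad-lib and -1.41 ± 0.25 in TAN libraries. By form the medians lay in opposite directions, with Gys2 over Pygl at -1.36 in ad-lib and -1.61 in TAN libraries, and Gys1 over Pygb at -1.62 and -1.32.

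The forms of each enzyme stood in different shares. Pygl made up 28.5% (median; 20.7% to 43.1%) of Pygl and Pygb per kb in ad-lib and 42.0% (21.6% to 62.1%) in TAN libraries. At 12AM the share was 32.6% ± 2.96 in ad-lib and 51.0% ± 8.07 in TAN libraries, and at 12PM 26.7% ± 0.931 and 46.95% ± 7.70, without overlap at either label (29.7% to 36.1% against 44.1% to 62.1%, and 25.4% to 27.5% against 35.5% to 52.0%). Gys2 made up 34.1% (18.0% to 52.2%) of Gys1 and Gys2 in ad-lib and 39.2% (20.3% to 62.0%) in TAN libraries, and at 4PM 27.6% ± 5.69 and 41.8% ± 6.72. At 8PM both shares were lower on average in TAN libraries, at 28.4% ± 5.98 against 35.1% ± 9.42 for Gys2 and 28.0% ± 5.79 against 30.1% ± 3.12 for Pygl. The ratios are descriptions with no test, and depend on the deposited lengths.

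**Figure D5:**
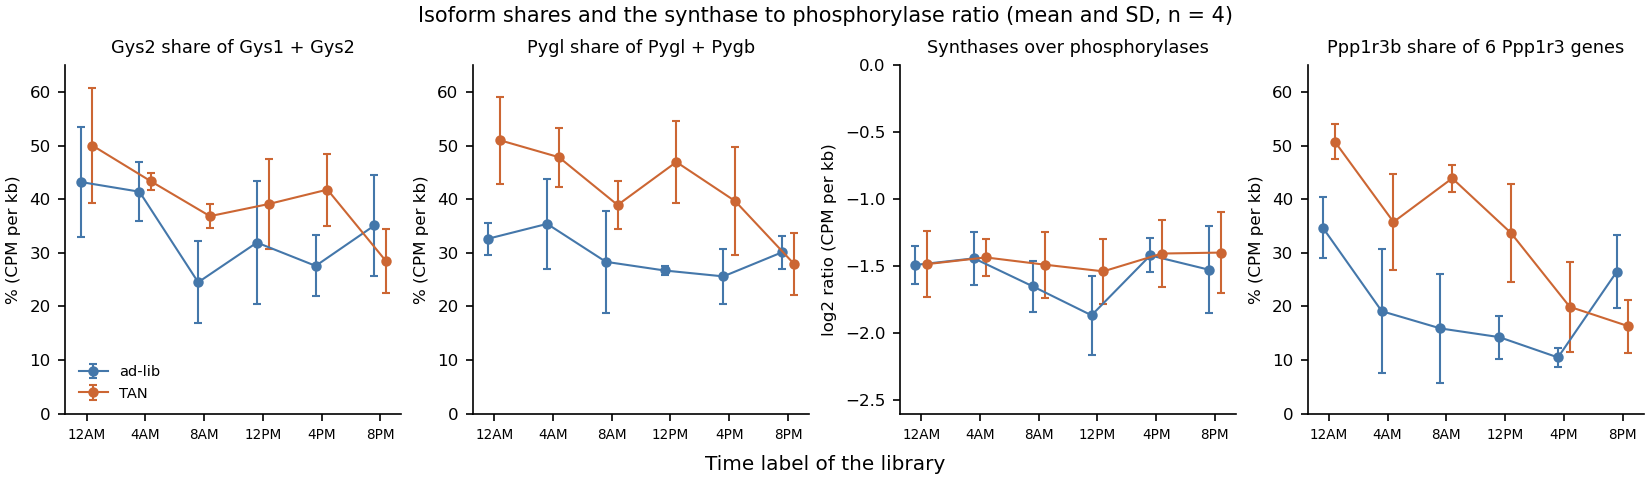
Share of Gys2 in Gys1 and Gys2, of Pygl in Pygl and Pygb, the log2 ratio of synthases to phosphorylases, and the share of Ppp1r3b in 6 Ppp1r3 genes, all from CPM per kb, by time label in ad-lib (blue) and TAN (orange) libraries (mean and SD, n = 4). The Pygl share is 51.0% in TAN and 32.6% in ad-lib libraries at 12AM, while the ratio of synthases to phosphorylases stays between -1.87 and -1.40 in the 12 groups.

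The ratio of the 3 targeting subunits to the 2 synthases was highest on average at 12AM and lowest at 4PM in both diets. Its log2 value was 1.78 ± 0.85 in ad-lib and 1.87 ± 0.56 in TAN libraries at 12AM, and -0.65 ± 0.22 and -0.48 ± 0.31 at 4PM.

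The time courses were also split into a 24-h and a 12-h component, since TAN mice had a pair of feeding windows a day. These windows were not 12 h apart, and a match of the 12-h component to the meals was not tested. A 12-h component in TAN sWAT was called for Pygl (adjusted p = 0.0269), 1 of 9 members against 2.07% of all genes, with an amplitude of 0.82 on the log2 scale and peaks 1.7 h after 12AM and 12PM. The other enzymes that rose in TAN had 12-h amplitudes of 0.75 (Gys2, peak at 2.1 h), 0.72 (Gbe1, 1.8 h) and 0.52 (Ugp2, 1.5 h), with adjusted p of 0.0972, 0.0987 and 0.111. The subunits peaked at another phase of the 12-h cycle, at 11.1 h (Ppp1r3b), 10 h (Ppp1r3c) and 11 h (Ppp1r3d) in TAN libraries, and none of them passed.

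In ad-lib sWAT the subunits had larger 12-h amplitudes than in TAN, 1.34 for Ppp1r3b, 0.97 for Ppp1r3c and 0.62 for Ppp1r3d against 1.06, 0.67 and 0.42, with peaks at 10.6, 10.6 and 10.4 h. No member had a called 12-h component there (0 of 9 against 0.015% of all genes, 3 at an unadjusted p under 0.05 against 4.41%, 0 by DESeq2 and by limma voom). The amplitudes were not tested between the diets, and 6 time labels per day give the phase only coarsely. The 12-h shift between the labels of the count table and of the paper's tables leaves these peaks in place.

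A 24-h component was called for 0 of 9 members in TAN (19.8% of all genes) and for 0 of 9 in ad-lib sWAT (0.0801%). At an unadjusted p under 0.05 there were 2 and 4 members, against 35.1% and 11.4% of all genes. DESeq2 and limma voom each called 1 in TAN, against 24.2% and 28.4% of all genes, and 0 in ad-lib. The lowest adjusted p was 0.0629, of Ppp1r3c in TAN libraries. The 12-h call of Pygl was lost without the adipocyte-poor libraries (adjusted p = 0.291) and in 6 of the 24 fits without 1 TAN library. A 12-h component passed in 5 of 9 members without TAN replicate 4 at 8PM, against 17.4% of all genes. It passed in 3 without TAN replicate 1 at 12AM, against 7.35%.

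Ordered by their mean log2 CPM over the 12 groups of diet and time label, Gys2, Gbe1, Ugp2, Pygl, Ppp1r3b, Ppp1r3c and Ppp1r3d were highest in TAN at 12AM, and Gys1 and Pygb in TAN at 4PM. The lowest group was ad-lib 4PM for Gbe1, Ugp2, Ppp1r3b, Ppp1r3c and Ppp1r3d, TAN 8PM for Pygl and Pygb, ad-lib 8AM for Gys2 and ad-lib 12PM for Gys1. For each of the 9 members the libraries of all 11 pairs of neighbours in this order overlapped. Within TAN, the order from 12AM to 4PM, 4AM, 12PM, 8AM and 8PM was shared by Gys2 and Gbe1.

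Of 27 other genes of glycogen metabolism, 26 were tested (all but Ppp1r3g), and few passed. At 4PM 3 of 26 rose in TAN sWAT, against 6.54% of all genes. They were Gyg, the glycogenin that primes new particles (log2 fold change 0.85 ± 0.19, adjusted p = 0.00908), Ppp1ca, a catalytic subunit of protein phosphatase 1 (0.70 ± 0.21, adjusted p = 0.0272), and Slc2a4, the insulin-responsive glucose transporter (1.29 ± 0.45, adjusted p = 0.0448). The same 3 rose in the mean over the time labels, against 2.68% of all genes, with log2 fold changes of 0.36 ± 0.08, 0.28 ± 0.09 and 0.62 ± 0.18.

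Gyg in TAN libraries was at 202 CPM on average at 12AM and at 123 CPM at 8AM. Its TAN effect differed between the time labels (adjusted p = 0.0296), 1 of 26 against 8.98% of all genes. Over the time course in TAN 4 of 26 varied, against 23% of all genes. Among them were Gyg (adjusted p = 0.0314) and the phosphorylase kinase subunits Phka2 (adjusted p = 0.0368) and Phkb (adjusted p = 0.0315). At 8PM 2 of 26 passed, against 11.7% of all genes. Ppp1ca rose (log2 fold change 0.62 ± 0.21, adjusted p = 0.0494) and Phka1, another phosphorylase kinase subunit, fell by 1.44 on the log2 scale (SE 0.48, adjusted p = 0.0425). In the 24-h component in TAN sWAT 4 of 26 passed, against 19.8% of all genes, Gyg, Ppp1cb and Epm2a among them. At the other time labels and over the time course in ad-lib libraries 0 of 26 passed. There 4 (12AM), 2 (4AM), 2 (8AM), 0 (12PM) and 1 (ad-lib time course) had an unadjusted p under 0.05, against 17.5%, 2.64%, 6.58%, 7.37% and 6.67% of all genes.

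The genes with the most similar course over the 12 group means of log2 CPM, among 14763 genes, were searched for the 6 members that varied in TAN. They were Dlat (r = 0.99), Pdha1 and Chpt1 for Gbe1, and Fh1 (0.98), Idh3a and Sccpdh for Ugp2. For Pygl they were Pgd (0.98), Gpd2 and Acadvl. The subunits had other neighbours, Nabp1 (0.96), Insig1 and Aacs for Ppp1r3b, Ddit3 (0.92), Nup35 and Tmem248 for Ppp1r3c, and Bcl2l10 (0.96), Tmem129 and Cdr2 for Ppp1r3d. Dlat and Pdha1 encode parts of the pyruvate dehydrogenase complex, Fh1 and Idh3a enzymes of the citrate cycle, and Insig1 a regulator of sterol synthesis.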

How the data were processed

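Poly-A RNA of 48 sWAT libraries was sequenced. The authors deposited raw read counts per gene for each library, and the FPKM averaged by them over the 4 libraries of each group. The submitters' processing notes name TopHat 1.3.3, DESeq2 1.20.0, limma and edgeR; strandedness and the counting tool are not given in the sources used here, so reads from a gene and an overlapping antisense gene cannot be told apart. The FPKM were used only to check labels: all 12 group columns matched the counts of the same label, and all 48 libraries matched the paper's table of library values under the same animal name 12 h apart. There were 0 columns of sample values left unused.

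Genes were kept by filterByExpr (minimum count 10; 19977 of 54532), scaled by TMM and tested in edgeR 4.0.16 (R 4.3.3) by 1 robust quasi-likelihood fit of 48 libraries in 12 groups of diet and time. Contrasts gave the TAN effect at each time, its mean and its difference between times, the variation over time, and 24-h and 12-h harmonics. P-values were adjusted over all tested genes by the Benjamini-Hochberg method, with a threshold of 0.05. They measure the spread between these libraries; the labels do not say that each is a separate mouse. Log2 CPM used a prior count of 2. The fit was tested on simulated data. Alternatives used DESeq2 1.42.0, limma 3.58.1, other filters and scalings, covariates and leaving out libraries. The named genes are the 9 members, those of 27 other glycogen genes that passed (1 of them, and 1 marker gene, are not reported here), and the 3 genes most like each member that varied in TAN. The members, lists and rules were chosen with earlier results of these data known.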

Additional observations from a re-analysis of the deposited data

Results flagged for a closer look

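In 7 of 108 sets of 4 libraries (9 members in 12 groups) 1 library stood apart from the other 3 by Dixon's ratio at its 95% critical value, and chance alone flags about 1 set in 20. In TAN at 4AM, replicate 2 was low for Gys2 (34.1 CPM against 43.0 to 43.9 CPM) and for Ugp2 (164 CPM against 224 to 236 CPM). In TAN at 12AM, replicate 1 was low for Gbe1 (241 CPM against 477 to 547 CPM). In ad-lib at 8AM, replicate 3 was low for Pygb (152 CPM against 281 to 300 CPM) and Ppp1r3c (29.5 CPM against 129 to 157 CPM). In ad-lib at 12PM, replicate 3 was high for Ppp1r3b (151 CPM against 25.8 to 32.9 CPM), and in ad-lib at 8PM, replicate 3 was low for Ppp1r3d (12.7 CPM against 22.5 to 25.0 CPM).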

How the results depend on the processing

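No called TAN effect of a member changed direction under 16 settings, but 20 of the 63 member fold changes (9 members at 6 time labels and in the mean) changed sign in at least 1, none of them called. Among these settings, the unadjusted p and the added fold threshold kept the main fold changes and could not change a sign. The separate fit per time label gave no mean. Counts are of 9 members, and the cause of each change was not tested. Percentages beside them are of all genes tested, in either direction. In the mean over the time labels 5 members became 3 with the TEC share as a covariate (2.84%) and 1 (Ppp1r3b) with a log2 fold change above 1 as well (1.97%). With 1 library left out there were 4 to 5. At 4PM 4 became 0 with the lymphocyte or the adipocyte markers as a covariate or without the lymphocyte-poor libraries, 1 with the TEC share, 6 in DESeq2, 7 without the adipocyte-poor libraries, 8 at an unadjusted p and 9 in a separate fit, and 2 to 4 with 1 library left out. Where 0 passed with all libraries, 12AM gave 2 in DESeq2 (2.84%) and 3 at an unadjusted p (17.5%). With 1 library left out 12AM gave 0 to 3. At 12PM there were 1 with lymphocyte markers (0.43%), 2 with adipocyte markers (0.556%) and 3 unadjusted (7.37%). At 8PM there were 1 in DESeq2 (16%), 1 unadjusted (28%) and 2 without the adipocyte-poor libraries (10.8%). With 1 library left out 8PM gave 0 to 1. Variation over time in TAN (6) became 3 with the TEC share (9.28%), and fell without the lymphocyte-poor libraries, which leaves 1 TAN library at 4PM. It became 4 with lymphocyte markers, and 3 to 8 with 1 library left out. In ad-lib (0) it became 1 in DESeq2 or without the lymphocyte-poor libraries, 2 with lymphocyte or adipocyte markers and 3 unadjusted. The difference of the TAN effect between times (0) became 1 in DESeq2 (20%) and with at least 10 counts in every library (20.4%). It became 1 without the adipocyte-poor libraries (17.4%) and with lymphocyte (6.58%), muscle (9.48%) or adipocyte markers (12.4%). It became 2 in limma voom (22.6%) and unadjusted (30.2%), and 0 to 1 with 1 left out. The 24-h component in TAN (0) became 1 in DESeq2, limma voom, with at least 10 counts, muscle markers or without the lymphocyte-poor libraries, 2 with lymphocyte markers, without the adipocyte-poor libraries or unadjusted, 3 with adipocyte markers, and 0 to 1 with 1 left out; in ad-lib it became 4 unadjusted. Of all genes, a 24-h component in TAN passed in 24.2% (DESeq2), 28.4% (limma voom), 29.4% (at least 10 counts) and 19.6% (muscle markers). It passed in 23.1% with lymphocyte markers, 26.1% without the adipocyte-poor libraries, 35.1% unadjusted and 31.9% with adipocyte markers. The 12-h component in TAN (1) became 4 in DESeq2 (8.42%) and limma voom (6.06%), 2 with lymphocyte markers (1.09%) or the TEC share (5.18%), and 3 with adipocyte markers (2.02%). It became 0 without the adipocyte-poor libraries (0.17%), 6 unadjusted (23.9%), and 0 to 5 with 1 left out. In ad-lib (0) it became 3 unadjusted (4.41%). The adipocyte covariate and the 2 sets of poor libraries were chosen after seeing the data. With the replicate number as a block the counts stayed at 4 (4PM), 6 (time in TAN), 1 (12-h in TAN) and 5 (mean); the numbers were not taken as pairing, since 10 of 24 pairs of same-numbered libraries correlated above 0.1 (median -0.01 over 5000 genes).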
